A study of Mus musculus with 20 samples.

Results

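The 8 mature mouse microRNAs (miRNAs) mmu-miR-124-3p, mmu-miR-124-5p, mmu-miR-128-3p, mmu-miR-128-1-5p, mmu-miR-128-2-5p, mmu-miR-137-3p, mmu-miR-138-5p and mmu-miR-218-5p, written without the species prefix from here on, were examined in small RNA libraries of cultured cortical neurons. They were chosen by name, as 5 miRNA families known to be enriched in neurons, and all 8 were found among the 1481 features of the deposited tables. The neurons came from cortices of mouse embryos at embryonic day 15 and were grown for 7 days. They were wild type or knockout for ciRS-7 (Cdr1as), a circular RNA of the brain, and the labels give the strain C57BL/6N-Cdr1asem1Nikr for both genotypes. Normoxic cultures stayed in the incubator at 37 °C and 5% CO2, and their medium was supplemented with glucose (25 mM) and pyruvate (0.2 mM). For oxygen-glucose deprivation (OGD), a culture model of ischaemia, the medium lacked both supplements and the cells spent 12 h in a chamber with 1% O2 at the same temperature and CO2. Each of the 4 groups (normoxic wild type, OGD wild type, normoxic knockout, OGD knockout) held 5 libraries. The labels do not tie a library to an embryo or litter, so the p-values below measure the spread between these libraries. Each library is a bulk culture, and the labels name a single Cdr1as allele.

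A miRNA precursor folds into a hairpin, and Dicer cuts a duplex from it whose strands are named 5p and 3p after the arm they come from. One strand is usually kept in an Argonaute protein, where its seed (bases 2 to 8) pairs with target mRNAs, and the other is mostly degraded. miR-124 is known as a miRNA of neurons that represses mRNAs of non-neuronal cells, among them the splicing regulator Ptbp1. miR-128 is known to dampen neuronal excitability, miR-137 to act in neuronal differentiation and at synapses, and miR-138 to limit the growth of dendritic spines. miR-218 is best known from motor neurons and is also expressed in forebrain neurons.

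The mature sequences show which members share a seed and which come from more than 1 hairpin, and 6 of the 8 members were matched in RefSeq's table for GRCm38.p6. They are written 5′ to 3′ with the seed in capitals.
miR-128-3p: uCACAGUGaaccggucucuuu
miR-128-1-5p: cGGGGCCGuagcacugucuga
miR-128-2-5p: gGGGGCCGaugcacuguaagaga
miR-137-3p: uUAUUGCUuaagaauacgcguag
miR-138-5p: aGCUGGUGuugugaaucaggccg
miR-218-5p: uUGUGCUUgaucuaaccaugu
The members miR-128-1-5p and miR-128-2-5p had the same seed, GGGGCCG, and no run longer than 7 bases in common. No other tabled feature with a matched sequence shared a seed with any of these 6.

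The hairpins of miR-128 are shown because miR-128-3p is identical in both, while each 5p strand belongs to 1 of them, so that only the 5p strands can tell the hairpins apart. The mature strands are in capitals.
Mir128-1: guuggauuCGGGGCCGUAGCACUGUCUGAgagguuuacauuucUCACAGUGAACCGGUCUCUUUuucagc
Mir128-2: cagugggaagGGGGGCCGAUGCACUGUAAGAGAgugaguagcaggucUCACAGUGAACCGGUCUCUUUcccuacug
On GRCm38.p6, Mir128-1 lay at chr1:128202361-128202430 on the plus strand, in an intron of the protein-coding gene R3hdm1. Mir128-2 lay at chr9:112118636-112118711 on the minus strand, in an intron of Arpp21. Mir218-1 (chr5:48223942-48224051, plus strand) and Mir218-2 (chr11:35616816-35616925, plus strand) lay in introns of Slit2 and Slit3, which encode axon guidance ligands. Mir137 (chr3:118433857-118433929, plus strand) overlapped an exon of the processed transcript Gm26871. Mir138-1 (chr9:122682876-122682974, plus strand) overlapped an exon of the pseudogene Gm47135, and Mir138-2 (chr8:94324311-94324381, plus strand) an exon of the long noncoding RNA C78859. Reads of miR-128-3p, miR-138-5p and miR-218-5p therefore cannot be assigned to 1 of their hairpins.

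Levels are given as CPM, reads scaled to a common library total. The libraries held 2492065 to 9117862 reads in normoxic wild-type neurons, 1160582 to 4374002 in OGD wild-type, 5884616 to 12477032 in normoxic knockout and 1811589 to 3119212 in OGD knockout neurons. A count of 0 allows up to 3 reads, which is more CPM in a shallower library and covers counting error only. On the first principal component of log2 CPM, which held 83% of the variance of 423 features, normoxic wild-type replicate 5 lay at -0.88 and the other 4 of its group at -14.46 to -13.09, towards the OGD libraries at 7 to 15.05. Normoxic knockout libraries were spread from -14.46 and -13.49 (replicates 3 and 1) to -9.693, -6.611 and -6.458 (replicates 5, 2 and 4). The labels name neurons, and the 17 markers of microglia, oligodendrocytes, astrocytes, endothelium, mesenchyme and blood were all listed in the tables. Their summed level was 2113 to 3052 CPM in normoxic wild-type, 2915 to 3521 in OGD wild-type, 2534 to 2847 in normoxic knockout and 2925 to 3754 in OGD knockout libraries. Most of it was miR-21a-5p, while the leukocyte markers miR-142a-3p, miR-142a-5p and miR-223-3p stayed between 0 and 12 reads in every library, and the fourth leukocyte marker, miR-155-5p, stood at 3.02 to 11.8 CPM.

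The level of the 8 members spanned over 4 orders of magnitude within each group, and the order was nearly the same in the 4 groups. miR-128-3p was the highest member throughout, with 60839 ± 13671 CPM (mean ± SD over 5 libraries) in the normoxic wild-type group, where it ranked 3 among the 1481 features. miR-218-5p followed at 5736 ± 1463 CPM and miR-124-3p at 3392 ± 491, and the libraries of these neighbours overlapped. miR-137-3p (508 ± 96.4 CPM), miR-124-5p (346 ± 95.6) and miR-138-5p (233 ± 15.7) came next, each overlapping its neighbour. The 5p strands of miR-128 were the lowest, with 5.94 ± 1.60 CPM for miR-128-1-5p and 1.05 ± 0.415 for miR-128-2-5p. After OGD, miR-138-5p stood above miR-124-5p in both genotypes without overlap. In normoxia their order was the reverse, with overlap in wild-type and none in knockout neurons. In OGD knockout neurons miR-124-3p (5399 ± 481 CPM) also stood above miR-218-5p (5059 ± 835), but those libraries overlapped. CPM compares levels between miRNAs only up to differences in how well each sequence is captured in library preparation.

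**Figure D1:**
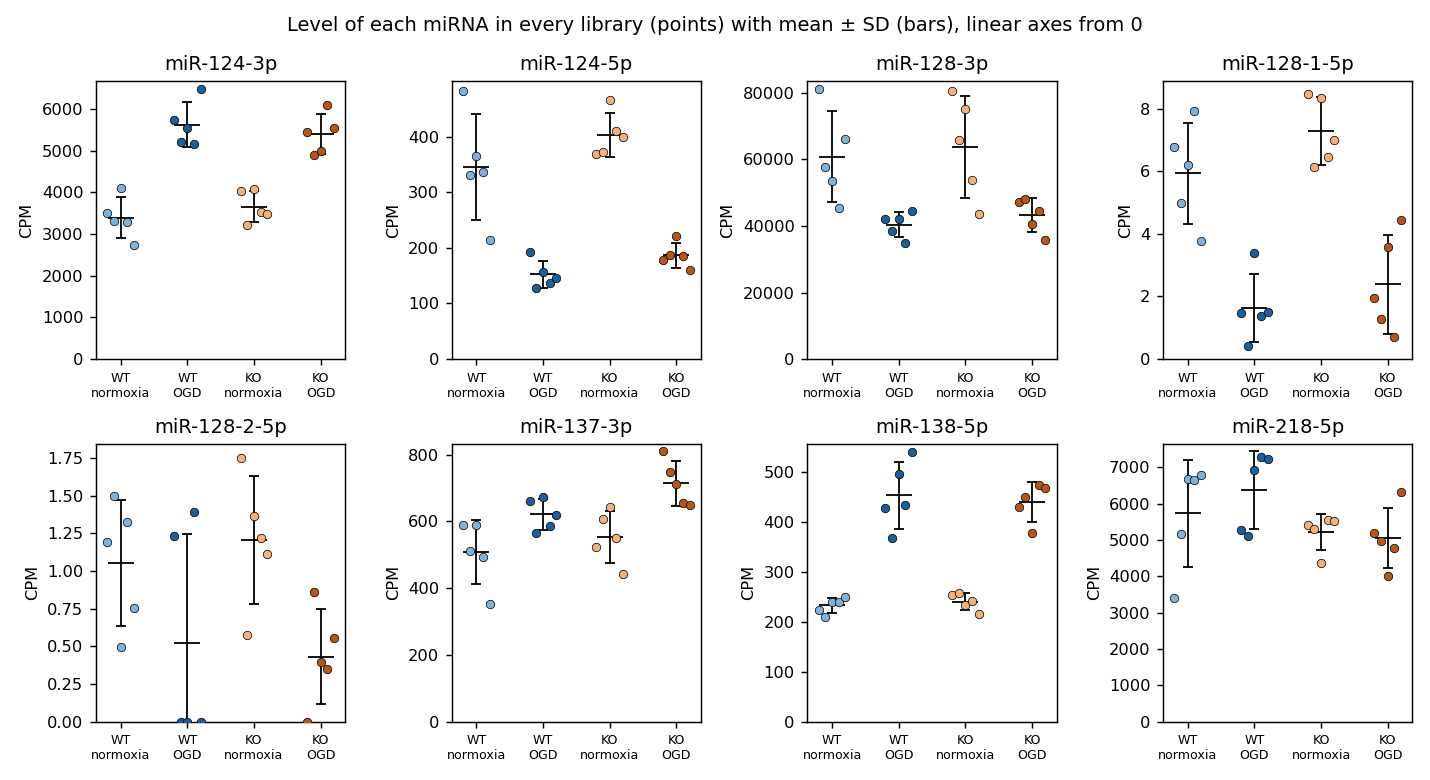
Level of each of the 8 miRNAs in CPM (vertical axes, linear from 0, a different scale in each panel) in the 4 groups; points are libraries and bars the mean ± SD (n = 5). miR-124-3p and miR-138-5p sit higher after OGD without overlap in both genotypes, and miR-124-5p sits lower.

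Together the members took 7.02% ± 1.11 of all reads in normoxic wild-type neurons (SD, n = 5) and 5.36% ± 0.45 after OGD. In knockout neurons the share was 7.43% ± 1.36 in normoxia and 5.51% ± 0.56 after OGD. Most of it was miR-128-3p, which alone held 6.01%, 4.03%, 6.41% and 4.33% of reads in the same order of groups. The plot of the share by library shows that the groups overlapped, and the sum was not tested because the members were chosen with earlier results known.

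**Figure D2:**
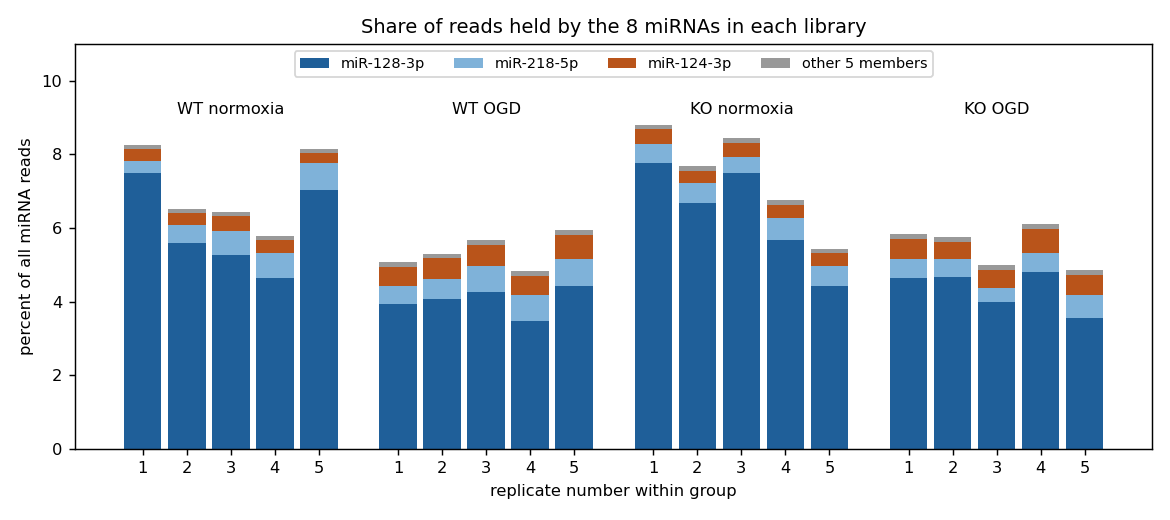
Percent of a library's miRNA reads (vertical axis, from 0) held by the 8 miRNAs, stacked as miR-128-3p, miR-218-5p, miR-124-3p and the other 5, for each replicate of the 4 groups. miR-128-3p makes up most of every bar.

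Each comparison was fitted with limma on log2(CPM + 0.5) over all features, with Benjamini-Hochberg adjusted p-values and a threshold of 0.05. After OGD, 5 of the 8 members changed in wild-type neurons, 2 higher (miR-124-3p and miR-138-5p) and 3 lower (miR-124-5p, miR-128-3p and miR-128-1-5p). The same fit called 23.1% of the 1478 features tested, 18.7% higher and 4.4% lower. In knockout neurons 7 of 8 members passed, 3 higher (these plus miR-137-3p) and 4 lower (these plus miR-128-2-5p), where 24.5% of 1479 features passed, 18.8% higher and 5.75% lower. The median log2 change of the members was -0.19 in wild-type and -0.30 in knockout neurons, beside 0.32 and 0.24 over all features. These are changes in a share of reads, in which fewer cells of a type and less RNA per cell cannot be told apart. Directions also depend on the scaling. The median log2 change of abundant features (mean log2 CPM of at least 3) was 0.22 in wild-type and 0.20 in knockout neurons. Centring each library on the median level of its abundant features lowered every change by more than that, by 0.56 in wild-type and 0.51 in knockout neurons. It left 1 member called higher (miR-138-5p) and 4 lower in wild-type neurons, where miR-128-2-5p was added, and 1 higher and 5 lower in knockout neurons, where miR-218-5p was added. The same centred fits called 25.2% of all features in wild-type neurons (7.31% higher, 17.9% lower) and 29.5% in knockout neurons (7.57% higher, 21.9% lower). Without normoxic wild-type replicate 5, the wild-type calls were miR-124-3p and miR-138-5p higher and miR-124-5p, miR-128-3p and miR-128-1-5p lower, with 23.1% of all features called (18.4% higher, 4.67% lower).

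**Figure D3:**
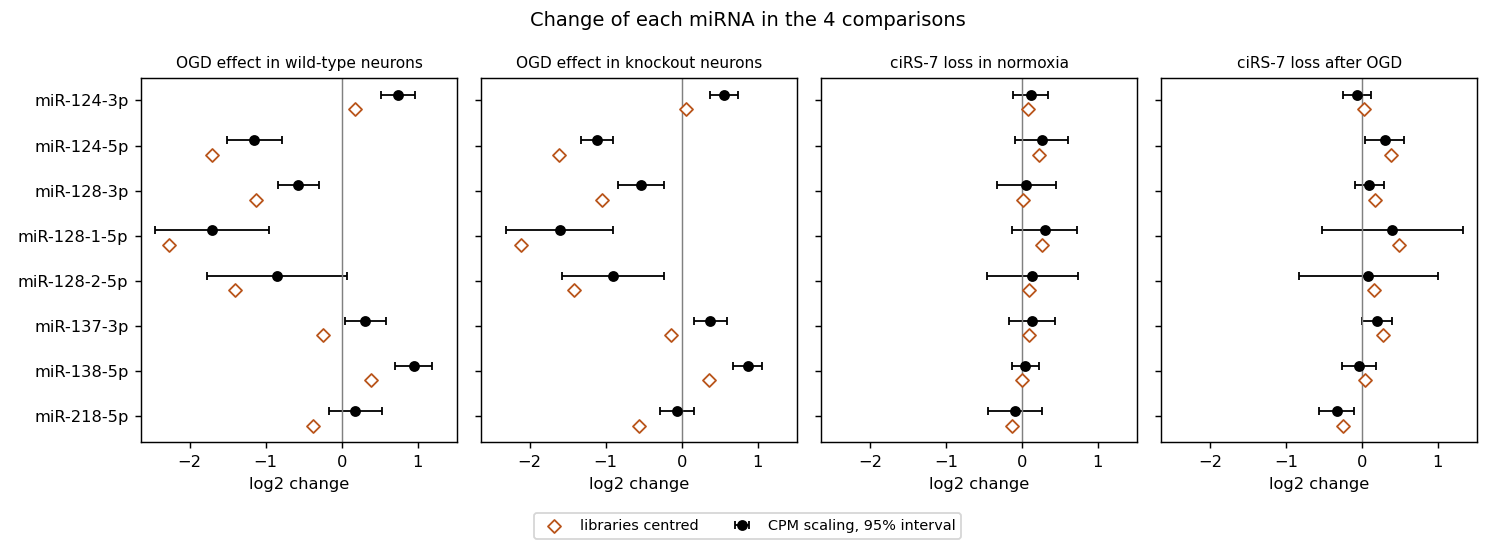
Log2 change (horizontal axes) of each of the 8 miRNAs in the 4 comparisons, as filled points with the 95% interval from limma on log2(CPM + 0.5) and as open diamonds after centring on abundant features (5 libraries per group). In the OGD panels the strands of miR-124 lie on opposite sides of 0 under CPM scaling, and the diamonds lie to the left of the points.

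miR-124-3p, the strand through which miR-124 is known to act, stood at 3502, 3316, 4107, 3296 and 2739 CPM in replicates 1 to 5 of normoxic wild-type neurons. After OGD the wild-type libraries held 5737, 5218, 5539, 5159.6 and 6484 CPM. All OGD libraries lay above all normoxic ones, and the level rose 1.67-fold (log2 change 0.74, SE 0.11, adjusted p = 3.8e-05; limma). In knockout neurons it was 4029, 3209, 4075, 3518 and 3470.2 CPM in normoxia and 5442, 4900.1, 5003, 6105 and 5544 after OGD, again without overlap, and rose 1.48-fold (log2 change 0.56, SE 0.09, adjusted p = 0.00011). Centred on abundant features the change was 0.18 (adjusted p = 0.246) in wild-type and 0.05 (adjusted p = 0.753) in knockout neurons. Centred on all features it was -0.016 in wild-type neurons, so that the call of miR-124-3p does not hold under centring. With quantile normalization limma kept the call, at 0.71 in wild-type (adjusted p = 0.0002) and 0.56 in knockout neurons (adjusted p = 0.00046).

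miR-124-5p, the strand that is mostly degraded, moved the other way. In normoxic wild-type neurons it stood at 482, 330.1, 366, 336 and 215 CPM, and after OGD at 192, 128.16, 157, 136.99 and 146. Every OGD library lay below every normoxic one, the lowest of which was replicate 5, and the level was 0.451 times that of normoxia (log2 change -1.15, SE 0.17, adjusted p = 5.2e-05; limma). Knockout neurons held 368, 372, 465, 409.5 and 399 CPM in normoxia and 179, 188, 221, 186 and 159 after OGD, without overlap, a level 0.463 times that of normoxia (log2 change -1.11, SE 0.10, adjusted p = 3.8e-07). Centring made the fall larger, at -1.71 in wild-type (adjusted p = 1.2e-06) and -1.62 in knockout neurons (adjusted p = 6.9e-09). The separately named miR-124b-3p, at 76.2 ± 15.4 CPM before and 73.8 ± 8.09 after OGD in the wild type, did not pass the test (log2 change -0.03, SE 0.16, adjusted p = 0.911; in knockout -0.02, adjusted p = 0.937). Centred on abundant features it was called lower, at -0.59 in wild-type (adjusted p = 0.00575) and -0.53 in knockout neurons (adjusted p = 0.0023). How reads shared by near-identical miRNAs were divided is not given in the sources used here.

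The ratio of miR-124-3p to miR-124-5p reads within a library does not depend on how libraries are scaled. It was 7.26, 10.04, 11.2, 9.82 and 12.8 in normoxic wild-type neurons and 29.8, 40.7, 35.2, 37.6 and 44.5 after OGD. In knockout neurons it was 10.9, 8.63, 8.76, 8.59 and 8.69 in normoxia and 30.4, 26.1, 22.6, 32.8 and 34.7 after OGD. The lowest OGD ratio was above the highest normoxic ratio in each genotype, and the mean log2 ratio was higher by 1.89 in wild-type (3.70-fold) and by 1.67 in knockout neurons (3.19-fold). An exact two-sided permutation test gave p = 0.0079 for each, the smallest that 5 libraries against 5 allow, and 0.0516 after Benjamini-Hochberg adjustment over the 13 ratio tests, which misses the threshold. limma over the strand pairs of all miRNA names with enough reads, chosen after seeing the data, called the ratio of miR-124 with adjusted p = 5.4e-08 in wild-type and 4.6e-10 in knockout neurons. That fit called 59% of 139 names in wild-type and 58.7% of 150 in knockout neurons, so a shift between strands was common among miRNAs after OGD.

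**Figure D4:**
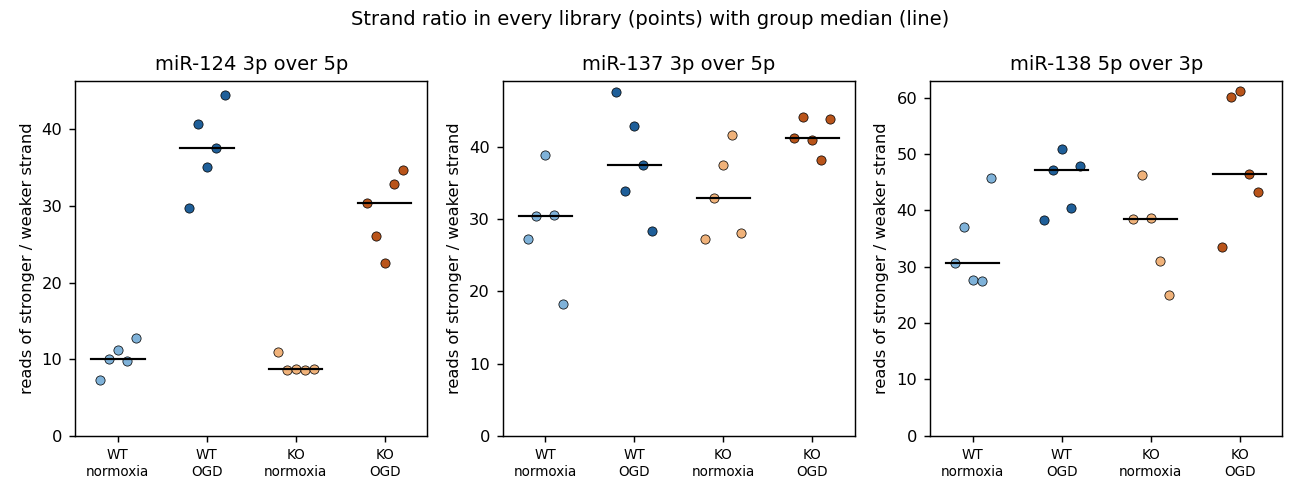
Ratio of reads of the stronger to the weaker strand (vertical axes, from 0) of miR-124, miR-137 and miR-138 in each library, with 0.5 read added per strand; points are libraries and lines group medians. The miR-124 ratios of OGD libraries lie above those of normoxic libraries in both genotypes, while the groups of miR-137 and miR-138 overlap.

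Among all those names, the fall of the weaker strand against the stronger one was among the largest for miR-124. Its log2 change of -1.89 was second of 139 in wild-type neurons, after miR-30b at -1.90, and its -1.67 was the lowest of 150 in knockout neurons. The middle of the names lay near 0, with a median of 0.06 in wild-type and 0.08 in knockout neurons and quartiles of -0.46 to 0.58 and -0.47 to 0.49. The plot of both strands' changes shows miR-124 in the quadrant where the stronger strand was higher and the weaker one lower.

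**Figure D5:**
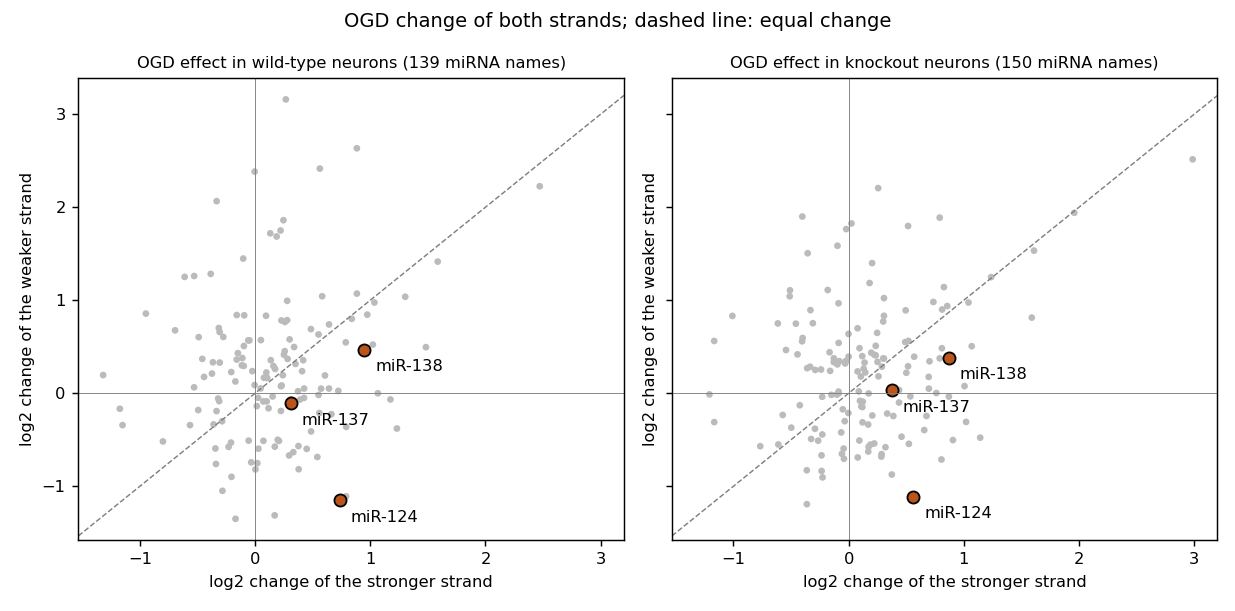
Log2 change after OGD of the weaker strand (vertical axes) against that of the stronger strand (horizontal axes) for 139 miRNA names in wild-type and 150 in knockout neurons; the dashed line marks equal change. miR-124 lies far below the line in both panels, with miR-137 and miR-138 closer to it.

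miR-128-3p, the guide strand made by both miR-128 hairpins, fell after OGD. Normoxic wild-type libraries held 81262, 57769.5, 53546, 45386 and 66232 CPM and OGD wild-type libraries 42186, 38425, 42087, 34841 and 44367. The groups did not overlap, although replicate 4 of the normoxic group was close to the highest OGD library, and the level was 0.674 times that of normoxia (log2 change -0.57, SE 0.13, adjusted p = 0.00265; limma). Knockout libraries held 80641, 65899.9, 75065, 53679 and 43501 CPM in normoxia and 47159, 48143, 40483, 44505 and 35878 after OGD. Here the groups overlapped, because normoxic replicate 5 lay below 3 OGD libraries, and the level was 0.691 times that of normoxia (log2 change -0.53, SE 0.14, adjusted p = 0.0103). The knockout call was lost without normoxic replicate 1 (adjusted p = 0.0614) or without OGD replicate 3 (adjusted p = 0.0555). Neither quantile normalization (adjusted p = 0.054) nor thinning to equal depth (adjusted p = 0.0783) kept it. Centring gave -1.13 and -1.04, with adjusted p of 9.4e-06 and 3.5e-05.

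The 5p strand of Mir128-1, miR-128-1-5p, was rare and also fell. It had 57, 40, 50, 42 and 10 reads in normoxic wild-type and 6, 1, 4, 2 and 3 in OGD wild-type libraries. In knockout neurons it had 102, 53, 49, 69 and 63 reads in normoxia and 6, 3, 9, 2 and 8 after OGD. On the CPM scale this was 5.94 ± 1.60 against 1.63 ± 1.09 CPM in wild-type and 7.28 ± 1.08 against 2.40 ± 1.58 CPM in knockout neurons (SD, n = 5). The change passed limma's test in wild-type (log2 change -1.70, SE 0.36, adjusted p = 0.00146) and knockout neurons (log2 change -1.60, SE 0.33, adjusted p = 0.0016), and its size depends on the pseudocount, being -1.15 in each with 2 CPM added. OGD libraries were also shallower, and with every library thinned to 1160582 reads the calls remained in both genotypes (adjusted p = 0.0321 and 0.015).

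miR-128-2-5p, the 5p strand of Mir128-2 with the same seed, was at the limit of detection. It had 10, 12, 4, 7 and 2 reads in normoxic and 5, 0, 0, 2 and 0 in OGD wild-type libraries, and limma's test was not passed (adjusted p = 0.18), whereas centring on abundant features (adjusted p = 0.0241) or on all features (0.00623) and quantile normalization (0.0348) called it lower. In knockout neurons the reads were 21, 5, 8, 13 and 10 in normoxia and 0, 2, 1, 1 and 1 after OGD, with adjusted p = 0.0484. That call was lost in 7 of the 10 fits that left out a library, where adjusted p rose to between 0.0737 and 0.119. With all libraries kept, 4 alternative settings of limma kept the call and 4 lost it. Among the losses were voom (adjusted p = 0.0607), the deposited values (adjusted p = 0.0878) and a replicate block (adjusted p = 0.0776). In normoxia, where both strands had reads in every library, the ratio of miR-128-1-5p to miR-128-2-5p reads ranged from 3.24 to 11.2 in wild-type and from 4.77 to 9.73 in knockout libraries. It was not tested, because miR-128-2-5p had a median of only 7 reads in normoxic wild-type libraries. The ratio of miR-128-3p to both 5p strands had a median of 8803 in normoxic wild-type and 7657 in normoxic knockout neurons, and was not tested after OGD because the median of the 5p reads there was under 10.

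miR-137-3p, whose known targets include synaptic and chromatin genes, had OGD changes that were not shown to differ between genotypes (interaction 0.06, adjusted p = 0.99; limma). The libraries held 589.5, 512, 589, 494 and 354 CPM in normoxic wild-type neurons and 661, 566, 674, 585 and 619 CPM after OGD. Replicate 5 was the lowest normoxic library, the groups overlapped and the test was not passed (log2 change 0.31, SE 0.13, adjusted p = 0.0959; limma). However, limma called the rise on the deposited values (adjusted p = 0.0326) and with the replicate number as a block (adjusted p = 0.0287). In knockout neurons 524, 607, 642, 551 and 441 CPM in normoxia stood against 809.6, 749, 711, 655 and 647 after OGD. These groups did not overlap and the level rose 1.30-fold (log2 change 0.38, SE 0.10, adjusted p = 0.0127). The knockout call held neither under quantile normalization (adjusted p = 0.111) nor at equal depth (adjusted p = 0.0525). Centring turned both changes negative, to -0.25 and -0.13, with adjusted p of 0.183 and 0.425. Its other strand, miR-137-5p, stood at 17.8, 16.5, 16.7 and 16.98 CPM on average in normoxic wild-type, OGD wild-type, normoxic knockout and OGD knockout neurons and was not called on the CPM scale. Centred on abundant features, miR-137-5p was called lower, at -0.67 in wild-type (adjusted p = 0.00957) and -0.48 in knockout neurons (adjusted p = 0.0413). The log2 ratio of miR-137-3p to miR-137-5p was 0.41 higher after OGD in wild-type and 0.33 higher in knockout neurons, and neither passed the exact permutation test after adjustment (adjusted p = 0.177 and 0.129).

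miR-138-5p, which both miR-138 hairpins produce, had the largest rise among the members in each genotype. Its normoxic wild-type libraries held 224, 211, 240.5, 241 and 250.1 CPM, and the OGD libraries 428, 369, 496, 435 and 541. Normoxic libraries were close together, every OGD library lay above them, and the level rose 1.93-fold (log2 change 0.95, SE 0.12, adjusted p = 6.7e-06; limma). Knockout neurons gave 254, 259, 234, 242 and 216 CPM in normoxia and 430.5, 451, 378, 475 and 469 after OGD, a rise of 1.83-fold without overlap (log2 change 0.87, SE 0.09, adjusted p = 1.9e-06). It was the only member whose rise passed the test after centring on abundant features, at 0.39 in wild-type (adjusted p = 0.0118) and 0.36 in knockout neurons (adjusted p = 0.0145). Centred on all features the changes were 0.19 (adjusted p = 0.353) and 0.35 (adjusted p = 0.0981), and the calls were lost.

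The 3p strands of the miR-138 hairpins differ in sequence and so separate Mir138-1 from Mir138-2. miR-138-2-3p averaged 5.38 CPM (normoxia) and 7.25 CPM (OGD) in the wild type, and 5.48 and 5.90 in knockout neurons, and was not called. miR-138-1-3p averaged 1.73 and 2.65 CPM in wild-type neurons, where it was not called (log2 change 0.48, SE 0.33, adjusted p = 0.319). In knockout neurons it averaged 1.41 CPM in normoxia and 3.42 after OGD, from 5 to 12 reads in an OGD library, and rose (log2 change 1.03, SE 0.29, adjusted p = 0.0142; limma), a call that centring on abundant features removed (0.52, adjusted p = 0.194). The log2 ratio of miR-138-5p to both 3p strands was 0.44 higher after OGD in each genotype, with adjusted p of 0.129 in wild-type and 0.177 in knockout neurons by the exact permutation test.

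miR-218-5p, carried by the Slit2 and Slit3 introns, did not pass the test after OGD in either genotype. Its level was 3404, 5173, 6669, 6647 and 6787 CPM in normoxic and 5289, 5121, 6938, 7277 and 7244 in OGD wild-type libraries (log2 change 0.18, SE 0.17, adjusted p = 0.468; limma). Replicates 1 and 2 were the lowest libraries in each of these groups, and the groups overlapped over most of their range. The knockout libraries held 5409, 5304, 4364, 5551 and 5514 CPM in normoxia and 5182, 4982, 4021, 4783 and 6329 after OGD (log2 change -0.06, SE 0.11, adjusted p = 0.738). The 95% interval of the log2 change was -0.17 to 0.53 in wild-type and -0.28 to 0.17 in knockout neurons. Centred on abundant features the change was -0.38 in wild-type (adjusted p = 0.0819) and -0.57 in knockout neurons (adjusted p = 0.00031), of which the second passes the threshold. The other strands, miR-218-1-3p and miR-218-2-3p, had at most 7 and 3 reads in a library. limma called miR-218-1-3p higher after OGD in knockout neurons (adjusted p = 0.045) from 0 to 5 reads per OGD library, and not after centring (adjusted p = 0.225).

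Loss of ciRS-7, which is known to bind miR-7 and miR-671, was compared in normoxia and after OGD. In normoxia 0 of the 8 members and 0% of 1481 features passed limma's adjusted threshold, with 47 features and 0 members at an unadjusted p under 0.05. The member changes ran from -0.09 for miR-218-5p to 0.30 for miR-128-1-5p on the log2 scale. For miR-124-3p the 95% interval was -0.11 to 0.35, for miR-138-5p -0.13 to 0.23 and for miR-128-3p -0.32 to 0.44.

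After OGD, knockout and wild-type neurons again differed in 0 of 8 members and 0% of 1481 features, with 108 features at an unadjusted p under 0.05. The members among these were miR-218-5p, 5059 CPM in knockout against 6374 in wild-type neurons (log2 difference -0.33, 95% interval -0.56 to -0.10, unadjusted p = 0.00594, adjusted p = 0.41; limma), and miR-124-5p. miR-124-5p stood at 187 against 152 CPM (log2 difference 0.30, 95% interval 0.04 to 0.56, unadjusted p = 0.0247, adjusted p = 0.555; limma). The libraries of both overlapped between genotypes. Without OGD knockout replicate 5, the highest miR-218-5p library of its group, limma called miR-218-5p (log2 difference -0.42, adjusted p = 0.0344) among 22 features. On the deposited values, whose extremes within each group had been pulled in, miR-124-5p was called (adjusted p = 0.0199) among 72 features.

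The OGD effect itself was compared between genotypes with an interaction term over all 20 libraries. Again 0 of 8 members and 0% of 1481 features passed, with 74 features at an unadjusted p under 0.05. The difference in OGD effect (knockout minus wild type) was -0.18 for miR-124-3p (95% interval -0.46 to 0.11), -0.08 for miR-138-5p (-0.38 to 0.21) and -0.24 for miR-218-5p (-0.68 to 0.20). For the miR-124 strand ratio the difference was -0.21 (SE 0.20, adjusted p = 0.99; limma over strand pairs). The OGD changes of the 2 genotypes therefore were not shown to differ for any member, and the wider intervals do not show that they were equal.

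Other miRNAs known from neurons were listed by name for comparison, 12 in all. In wild-type neurons 5 rose and 2 fell after OGD, beside 18.7% higher and 4.4% lower among all features. In knockout neurons 6 rose and 2 fell, beside 18.8% and 5.75%. The centring on abundant features gave 2 higher and 6 lower in each genotype, beside the centred shares of all features (7.31% higher and 17.9% lower in wild-type, 7.57% and 21.9% in knockout neurons). miR-9-5p, the most abundant of them and a miRNA of neural progenitors and neurons, changed by -0.02 (adjusted p = 0.875) in wild-type and 0.08 (adjusted p = 0.541) in knockout neurons, and after centring by -0.59 (adjusted p = 0.00076) and -0.43 (adjusted p = 0.0053). miR-129-5p fell from 11648 to 6156 CPM in wild-type (log2 change -0.95, SE 0.17, adjusted p = 0.00044; limma) and from 10652 to 5344 in knockout neurons (log2 change -1.01, SE 0.11, adjusted p = 4e-06). miR-132-3p, whose gene is induced by the activity-dependent factor CREB, rose in wild-type neurons (log2 change 0.38, SE 0.13, adjusted p = 0.0462) and did not pass in knockout neurons (log2 change 0.37, SE 0.14, adjusted p = 0.0595), and centring turned its change to -0.19 (adjusted p = 0.309) and -0.14 (adjusted p = 0.491). miR-153-3p changed by 0.38 (adjusted p = 0.0756) in wild-type and 0.28 (adjusted p = 0.0455) in knockout neurons, and after centring by -0.18 and -0.23, neither of which passed (adjusted p = 0.416 and 0.119). Of the 17 markers of other cell types, 3 rose in wild-type neurons (miR-126a-5p, miR-146a-5p and miR-214-3p), 4 rose in knockout neurons (miR-146a-5p, miR-155-5p, miR-21a-5p and miR-338-3p) and 0 fell, which is near the share of all features called higher (18.7% and 18.8%). After centring on abundant features 0 markers were called higher, and 1 was called lower in wild-type and 3 in knockout neurons, where 17.9% and 21.9% of all features were called lower. The part of other cell types in the members' changes was not tested.

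Across the 20 libraries the features outside the members with the most similar log2 CPM were found among 417 abundant ones. miR-124-3p was most like miR-361-5p (Pearson r = 0.965) and miR-23b-3p (0.944), and miR-138-5p most like miR-130a-3p (0.977) and miR-326-3p (0.976). miR-137-3p was most like miR-374b-5p (0.926) and miR-9-3p (0.911), and miR-128-3p most like miR-125b-1-3p (0.898) and miR-296-3p (0.870). miR-218-5p, which did not separate the conditions, was most like miR-431-5p (0.811) and miR-381-3p (0.80). Among the members, miR-124-3p and miR-124-5p correlated at -0.746, and miR-124-5p with miR-128-3p at 0.747. These values describe 20 libraries that share depth differences and the OGD contrast, and no p-value is attached.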

How the data were processed

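Small RNA libraries (NEBNext kit, size-selected, from TRIzol RNA treated with DNase, per the labels' protocols) were deposited as 6 tables, one per pair of groups. The deposited values are a score. Their maxima of 35.8 to 37.3 are larger than any log2 CPM can be (19.9). The submitters' processing notes name the build mm10; the aligner, the miRBase release and the counting are not given in the sources used here. From the values, each score was whole reads times a library factor, raised to a power of 0.106 to 0.118, with the extremes of each group of 5 pulled in at the quantiles 0.16 and 0.84. Undoing both steps gave whole reads (within 0.05) for 100% of values, and the same reads in every table that held a library (59070 comparisons, 0 differences). CPM used the authors' library factors, 0.923 to 1.08 times the totals. No 2 replicates matched within sampling noise (lowest chi-square per degree of freedom 16.5).

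limma 3.58.1 in R 4.3.3 (lmFit, eBayes with trend) was fitted to log2(CPM + 0.5), 10 libraries per comparison and all 20 for the interaction, two-sided, adjusted by Benjamini-Hochberg over all features (1478 to 1481). Strand ratios used 0.5 read added per strand and, where the weaker strand had a median of at least 10 reads, an exact permutation test. Scripts were tested on simulated data. Replicates are those the labels number; reads are not molecules. Every member was named in every comparison, with the other strands of its hairpins and the lists above. The members, lists and tests were chosen with earlier results of these data known. Alternatives were other scalings, pseudocounts, filters, thinning, voom, the deposited values, a replicate block and leaving out each library.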

Additional observations from a re-analysis of the deposited data

Results flagged for a closer look

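In 3 of 51 groups of 5 checked, 1 library stood far from the other 4 by Dixon's test at the 95% level, which chance gives in about 1 of 20 groups, and all 3 were in normoxic knockout neurons. miR-218-5p was lowest at 4364 CPM in replicate 3, where the others held 5304 to 5551. The ratio of miR-124-3p to miR-124-5p reads was highest at 10.95, with 8.59 to 8.76 in the others. The ratio of miR-128-1-5p to miR-128-2-5p reads was highest at 9.73, with 4.77 to 6.05 in the others, and rests on few reads of miR-128-2-5p.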

How the results depend on the processing

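The OGD calls of miR-124-5p and miR-128-1-5p held in both genotypes under every alternative that could be run for them; the filter on abundant features removes miR-128-1-5p. Centring on all features lowered OGD changes by 0.75 in wild-type and 0.52 in knockout neurons, beyond their median changes of 0.32 and 0.24. With each library centred on its median over all features, the wild-type OGD change was -0.016 for miR-124-3p, -0.44 for miR-137-3p and -0.57 for miR-218-5p, and with abundant features -0.25 and -0.38 for the last 2. In knockout neurons miR-137-3p was then -0.14 and -0.13, and quantile normalization put miR-218-5p at 0.025. After OGD, the genotype difference of miR-124-3p was 0.20 and 0.022 under the 2 centrings and that of miR-138-5p 0.22 and 0.047, or 0.012 with quantiles. The miR-128-2-5p difference was -0.018 with 2 CPM added and -0.11 with voom. The interaction, centred on all features, was 0.076 for miR-124-3p, 0.20 for miR-128-2-5p, 0.17 for miR-138-5p and 0.013 for miR-218-5p; for miR-128-2-5p it was 0.014 centred on abundant features and 0.10 thinned. The genotype difference of the thinned miR-138 strand ratio was -0.28 in normoxia and -0.12 after OGD. The cause of these reversals was not tested.

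Counts moved as well. Features called after OGD were 223 in wild-type neurons with only abundant features tested, 693 there and 784 in knockout neurons with voom, and 221 in knockout neurons after thinning, which left 4 members. Between genotypes, the deposited values called 33 features in normoxia and 72 after OGD (1 member), and thinning called 3 after OGD. limma over strand pairs called the miR-124 ratio at 1.89 and 1.67. Without miR-9-5p in the total, the members' share was 9.53%, 7.24%, 10.05% and 7.60% in the order of the report.

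Leaving out each library in turn, the log2 change of miR-218-5p after OGD in knockout neurons ran from -0.14 to 0.022. The genotype difference ran in normoxia from -0.0092 to 0.29 for miR-128-2-5p and from -0.038 to 0.19 for miR-128-3p, and after OGD from -0.10 to 0.38 for miR-128-2-5p and from -0.11 to 0.032 for miR-138-5p. After OGD it called 0 to 22 features and 0 to 1 members. The interaction ran from -0.093 to 0.20 for miR-124-5p, from -0.094 to 0.13 for miR-128-3p, from -0.17 to 0.37 for miR-128-1-5p, from -0.24 to 0.24 for miR-128-2-5p and from -0.014 to 0.19 for miR-137-3p, with 0 to 1 features called, the 1 without OGD wild-type replicate 1. The OGD difference in log2 strand ratio ran from 1.77 to 1.97 for miR-124 and from 0.37 to 0.55 for miR-138 in wild-type neurons, and from 1.61 to 1.76 for miR-124 and from 0.26 to 0.42 for miR-137 in knockout neurons. Without normoxic wild-type replicate 5 the miR-124 and miR-138 ratios passed (adjusted p = 0.0344 by the exact test), as did those of miR-124 and miR-137 without normoxic knockout replicate 4. The normoxic genotype difference in the miR-138 ratio ran from -0.011 to 0.21.

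Same-numbered libraries did not deviate together throughout (correlations of deviations from -0.17 to 0.66 after OGD in wild-type and from -0.21 to 0.49 in knockout pairs, 4 of 5 over 0.1 in each). Wild-type OGD replicates 1, 2, 4 and 5 correlated more with the normoxic library of their own number than with any other. Replicate 3 did not (-0.17 against 0.38). In knockout neurons this held for replicates 1, 3 and 4 and not for 2 and 5. The main fits do not take the numbers as pairs, and pairing is not excluded. With the replicate block limma called 389 features and 6 members in wild-type and 403 features and 6 members in knockout neurons; it added miR-137-3p in wild-type (adjusted p = 0.0287) and lost miR-128-2-5p in knockout neurons (adjusted p = 0.0776). Depth limits miR-128-1-5p, miR-128-2-5p and the 3p strands of miR-138 and miR-218 in OGD libraries.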

Other observations

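miR-129 showed the strand pattern opposite to miR-124. Its abundant strand, miR-129-5p, fell after OGD, while in the wild type the mean level of miR-129-1-3p was 73.6 ± 9.72 CPM in normoxia and 139.7 ± 31.9 after OGD (log2 change 0.90, SE 0.15, adjusted p = 0.00021; limma) and that of miR-129-2-3p 735 ± 142 and 1346 ± 396 (log2 change 0.85, SE 0.17, adjusted p = 0.00075; SD, n = 5). In knockout neurons the log2 changes were 0.79 (adjusted p = 0.00013) and 0.84 (adjusted p = 0.00026). Centred on abundant features, the 3p changes were 0.34 and 0.29 in wild-type neurons and did not pass (adjusted p = 0.0852 and 0.2), while miR-129-5p stayed lower at -1.51 (adjusted p = 4e-06). Among all miRNA names, the log2 change of the weaker over the stronger strand of miR-129 was 1.81 in wild-type and 1.84 in knockout neurons, ranking 130 of 139 and 147 of 150 from the lowest. Another neuron-enriched miRNA, miR-376a-3p, held 14.98 ± 4.36 CPM in normoxia and 51.3 ± 12.7 after OGD in the wild type (log2 change 1.75, SE 0.20, adjusted p = 3.2e-06) and 14.7 ± 2.20 and 51.3 ± 9.37 CPM in the knockout (log2 change 1.77, SE 0.15, adjusted p = 2.9e-07); it was picked for mention after its values were seen.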
